A study of Gallus gallus with 24 samples.

Results

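The transcripts described here come from 10 genes that act as brakes on, or readouts of, the ERK pathway: the Sprouty genes SPRY1, SPRY2 and SPRY4, the related SPRED1 and SPRED2, the phosphatase genes DUSP1, DUSP4 and DUSP6, and the ETS transcription factor genes ETV4 and ETV5. They were chosen by name, as the rows whose gene symbol matched, and all 10 were found among 25466 genes. All 10 also passed the filter on low counts, which kept 13000 genes. RNA was sequenced from DF1 cells, a spontaneously immortalised line of chicken embryonic fibroblasts, in 24 libraries that formed 8 groups of 3. IRF9 knockdown cells and mock cells (wild type in the labels) were each collected at 4 times of poly(I:C) treatment, 0 h, 30 min, 1 h and 6 h; poly(I:C) is a synthetic RNA duplex that stands in for viral RNA. The series concerns what IRF9 does in the chicken's innate antiviral response, and IRF9 is known in mammals as the DNA-binding partner of STAT2 in interferon signalling. Poly(I:C) is named in the labels of every group, 0 h included, and no untreated groups at the later times were analysed here, so an effect of poly(I:C) and one of time in culture cannot be told apart. The sources used here do not give how the knockdown was made, how poly(I:C) reached the cells or whether replicates were separate cultures. The p-values therefore measure spread among these particular samples, and that spread may be technical.

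Growth factor receptors activate RAS, which switches on the kinases RAF, MEK and ERK in turn, and active ERK turns on genes whose products limit the same pathway. Sprouty and SPRED proteins, as described chiefly in mammals and in Drosophila, act upstream, between receptor and RAF; SPRED proteins bring the RAS inhibitor neurofibromin to the membrane. DUSP6 removes the activating phosphates of ERK in the cytoplasm, while DUSP1 and DUSP4 do so for MAP kinases in the nucleus, DUSP1 acting on p38 and JNK as well. ETV4 and ETV5 carry the FGF and ERK signal to target genes, and in fibroblasts transcripts of these families are commonly read as a record of recent ERK activity.

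Each library held between 12174030 and 19974065 counts in genes, and the 10 genes together took 0.0541 to 0.0727% of them. Each of these genes had at least 233 reads in every library. Levels are given as CPM, the counts divided by each library's TMM-scaled total. They are not divided by transcript length, so levels of different genes are not compared. The 4 libraries of mock replicate 2 stood apart from the others on the first principal component of all genes, at 29.5 to 39.8 against -17.8 to 8.58. All 15 fibroblast markers looked for passed the filter on low counts, led by FN1, VIM and COL1A1. PDGFRA was the lowest of them, at 1.21 CPM on average and 0.216 CPM in its lowest library. The 15 had a summed level of 5710 to 7048 CPM in knockdown libraries and 5972 to 8315 CPM in mock libraries. Epithelial markers summed to at most 0.653 CPM in knockdown libraries and 0.720 CPM in mock libraries, with KRT8 and KRT18 at 0. Leukocyte markers summed to 20.2 to 39.2 CPM in knockdown libraries and 18.7 to 40.5 CPM in mock libraries. Of these 8 markers, 5 passed the filter, led by CD3E (14.1 CPM on average) and CD74 (8.84 CPM). Endothelial markers summed to at most 5.87 CPM and skeletal muscle markers to at most 0.963 CPM in any library. In bulk RNA, fewer cells that express a gene and less RNA per cell cannot be told apart.

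The targeted gene checks the labels. IRF9 (chromosome 20, 10406021 to 10408887, build GRCg7b; the reference lists IRF10 as its other name) had 12.2 to 23.2 CPM in the knockdown libraries and 25.0 to 45.3 CPM in the mock libraries, so no knockdown library reached a mock library. Averaged over the 4 times it was lower in knockdown cells by a log2 fold change of -0.79 (SE 0.09, edgeR adjusted p = 7.67e-05).

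After 6 h, 3 of the 10 genes were higher than at 0 h when the genotypes were averaged: SPRY4 most, then DUSP6 and SPRY1. Among all 13000 genes tested, 3.7% were called higher in that comparison (edgeR, Benjamini-Hochberg adjusted p under 0.05 over all genes). No member was called lower. The members were chosen with earlier results of these data known, so their count beside the share of all genes is a description. The members' median log2 fold change was 0.18, beside a median of 0.00 over all genes. Library totals without TMM moved the all-gene median to -0.04 and the calls of all genes to 377 higher of 641, against 481 higher of 656 with TMM, and the same 3 members were called. Within a genotype, 1 member was called higher in knockdown cells (SPRY4; 1.43% of all genes were called higher) and 2 in mock cells (SPRY4 and DUSP6; 1.94%).

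**Figure D1:**
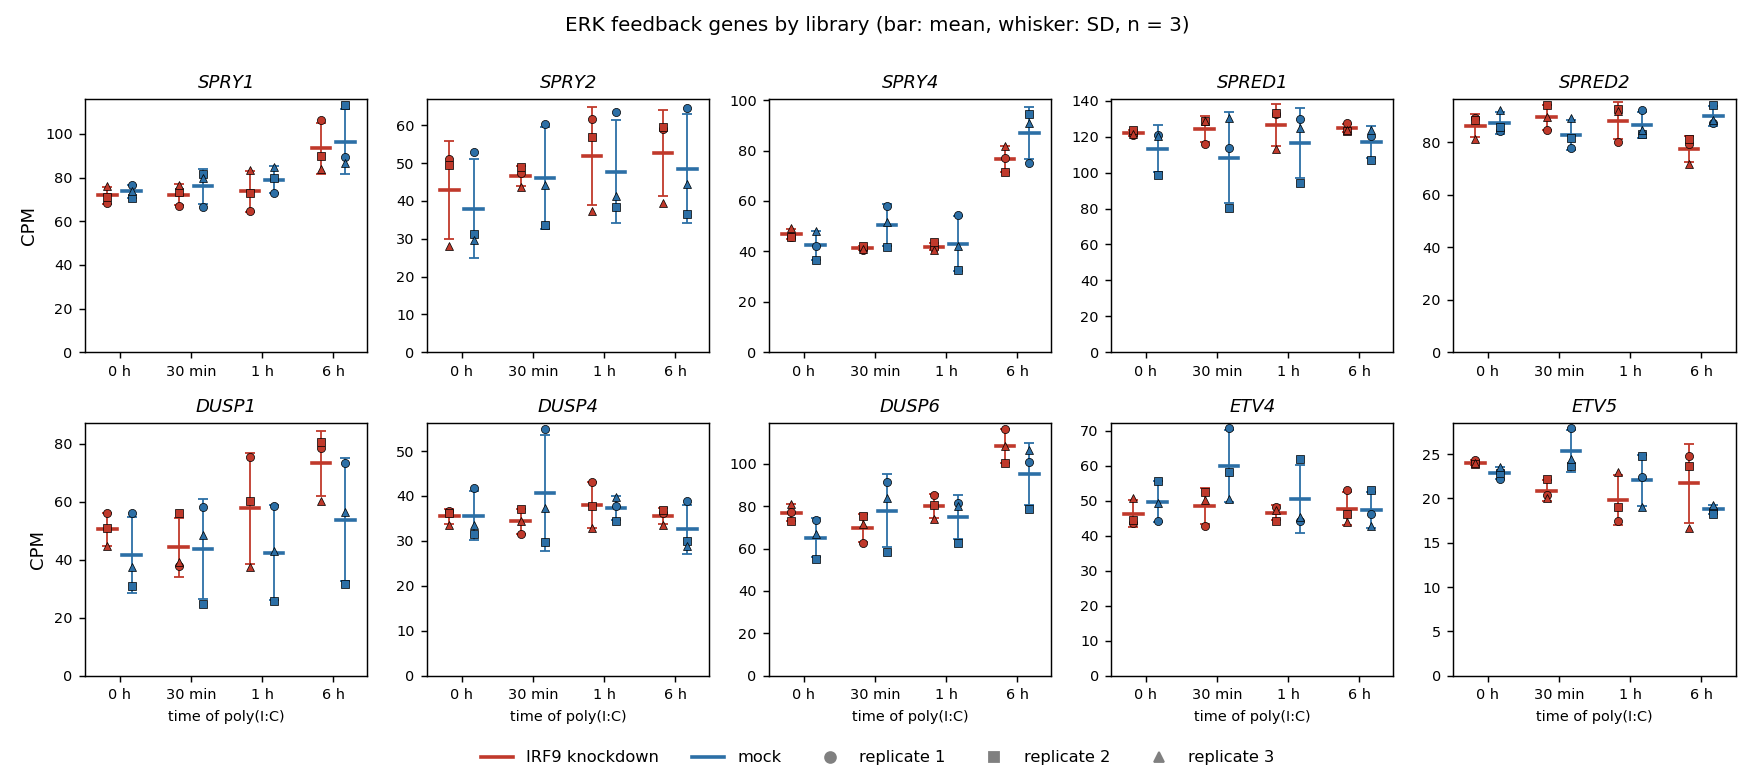
CPM (y axis, from 0) of each of the 10 genes by time of poly(I:C) (x axis, categories), IRF9 knockdown left of mock at each time; points are libraries, shaped by replicate number, with the group mean and SD (n = 3). SPRY4 at 6 h, 71.4 to 94.5 CPM over both genotypes, lies above every earlier library, while SPRED1, DUSP4 and ETV4 show no such step.

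SPRY4, a Sprouty that restrains RAS activation downstream of receptors (chromosome 13, 16814841 to 16828238), changed most. In knockdown cells its 3 libraries had 45.7, 45.6 and 49.2 CPM at 0 h, 40.6, 42.2 and 41.0 CPM at 30 min, 41.4, 43.5 and 40.7 CPM at 1 h, and 76.97, 71.4 and 81.6 CPM at 6 h. In mock cells they had 42.2, 36.8 and 48.2 CPM at 0 h, 58.0, 41.6 and 51.5 CPM at 30 min, 54.3, 32.6 and 42.1 CPM at 1 h, and 75.2, 94.5 and 90.9 CPM at 6 h. Every 6 h library was above every earlier library in both genotypes, and the earlier times of mock cells overlapped each other. In knockdown cells the 30 min and 1 h libraries lay below those of 0 h, with log2 fold changes of -0.18 and -0.16 (SE 0.14 each) that did not pass (edgeR adjusted p = 0.999 and 1.000). The log2 fold change at 6 h over 0 h was 0.71 in knockdown cells (SE 0.14, edgeR adjusted p = 0.00521) and 1.04 in mock cells (SE 0.14, adjusted p = 5.63e-05). Against 1 h, it was 0.87 in knockdown cells (edgeR adjusted p = 0.000585) and 1.02 in mock cells (adjusted p = 7.34e-05), so most of the step lay between 1 h and 6 h. These 4 calls, and those of the averaged comparisons, held without any 1 library. The ratio of the highest to the lowest group mean was 2.1 for SPRY4, where the median gene of like level (20 to 130 CPM, 5322 genes) had 1.23.

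DUSP6, the cytoplasmic ERK phosphatase (chromosome 1, 43341540 to 43346237), followed at a smaller size. At 6 h, knockdown libraries had 116.3, 100.5 and 108.6 CPM, against 77.1, 72.8 and 81.1 CPM at 0 h. In mock cells the 6 h libraries had 100.8, 78.7 and 106.3 CPM, against 73.4, 55.1 and 67.0 CPM at 0 h. The 6 h and 0 h libraries did not overlap in either genotype, and mock replicate 2 was the lowest of the 3 mock libraries at 4 of 4 times. At 30 min the knockdown libraries had 62.5, 75.4 and 71.4 CPM and the mock libraries 91.5, 58.6 and 83.8 CPM; at 1 h they had 85.4, 80.7 and 74.2 CPM in knockdown cells and 81.7, 62.7 and 80.1 CPM in mock cells. These earlier levels overlapped those at 0 h in both genotypes. Averaged over genotypes, the log2 fold change at 6 h over 0 h was 0.52 (SE 0.10, edgeR adjusted p = 0.00179), a call that held without any 1 library and under all 9 other settings.

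Within a single genotype the DUSP6 call was at the edge in the main fit, which has no replicate block. In knockdown cells it missed the threshold (log2 fold change 0.49, SE 0.14, edgeR adjusted p = 0.0992), and it passed when mock 30 min replicate 2 was left out (adjusted p = 0.0316). It also passed with DESeq2 (adjusted p = 0.0473), and by edgeR without the low-count filter (0.0219) or with a shared replicate block (0.0200). Only the groups compared (0.000305), the block within genotype (0.000254) and no mock replicate 2 libraries (0.000958) gave a call by edgeR too. It missed with DESeq2 size factors in edgeR, with library totals and with limma voom. In mock cells it passed (0.55, SE 0.15, edgeR adjusted p = 0.0453), and it held in 11 of 24 fits that each left out 1 library. Of 9 other settings, 8 called it, among them the replicate block within genotype, which uses the pairing of the mock libraries. It was lost with only the groups compared (0.55, edgeR adjusted p = 0.165). Leaving out a mock library of the comparison itself gave 0.44 without 0 h replicate 2, 0.57 without 0 h replicate 3, 0.51 without 6 h replicate 1 and 0.46 without 6 h replicate 3, where the call ended with adjusted p up to 0.282 by edgeR. It gave 0.64 without 0 h replicate 1 and 0.67 without 6 h replicate 2, where the call held. Leaving out mock 1 h replicate 3, any of the 3 knockdown 0 h libraries, knockdown 6 h replicate 3, or replicate 2 or 3 of knockdown 30 min or 1 h kept the fold change at 0.55 with edgeR adjusted p of at most 0.0606, past the threshold.

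SPRY1, another Sprouty (chromosome 4, 52868037 to 52891574), had 106.6, 89.8 and 84.1 CPM in knockdown cells at 6 h, against 68.4, 71.1 and 76.1 CPM at 0 h. In mock cells it had 89.2, 113.4 and 86.7 CPM at 6 h, against 76.5, 70.5 and 74.0 CPM at 0 h. The 6 h libraries lay above the 0 h libraries in both genotypes. The intermediate libraries lay between 64.9 and 83.5 CPM in knockdown cells and between 66.7 and 84.8 CPM in mock cells, overlapping those at 0 h. The averaged log2 fold change was 0.38 (SE 0.08, edgeR adjusted p = 0.00445). In the main fit it did not pass in one genotype alone. It had 0.38 in knockdown cells (edgeR adjusted p = 0.132) and 0.39 in mock cells (adjusted p = 0.0980). In knockdown cells edgeR called it with only the groups compared (adjusted p = 0.0113) and without the mock replicate 2 libraries (adjusted p = 0.0469). A replicate block within genotype called it there too (edgeR adjusted p = 0.0239), although knockdown libraries were not taken as paired by number. No other setting called it there. In mock cells, where replicate numbers paired the libraries, a replicate block within genotype gave 0.38 with adjusted p = 0.0217.

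Against 1 h rather than 0 h, SPRY4, DUSP6 and SPRY1 were again the members called higher when averaged over genotypes, and 3.64% of all genes were. SPRY4 alone was called within a genotype, where 1.32% of all genes were called higher in knockdown cells and 2.11% in mock cells. With the replicate block in mock cells DUSP6 passed as well (0.35, edgeR adjusted p = 0.0114). The averaged DUSP6 value of 0.39 (adjusted p = 0.0219) became 0.37 without knockdown 6 h replicate 1 or without knockdown 1 h replicate 3, 0.34 without mock 1 h replicate 2 and 0.35 without mock 6 h replicate 3, each past 0.05. The averaged SPRY1 value of 0.31 (adjusted p = 0.0246) lost its call without mock 1 h replicate 1 (0.29), knockdown 1 h replicate 1 (0.27), knockdown 6 h replicate 1 (0.26), mock 6 h replicate 2 (0.25) or knockdown 1 h replicate 2 (0.31). Without all mock replicate 2 libraries it was 0.25 and was not called (edgeR adjusted p = 0.0915).

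**Figure D2:**
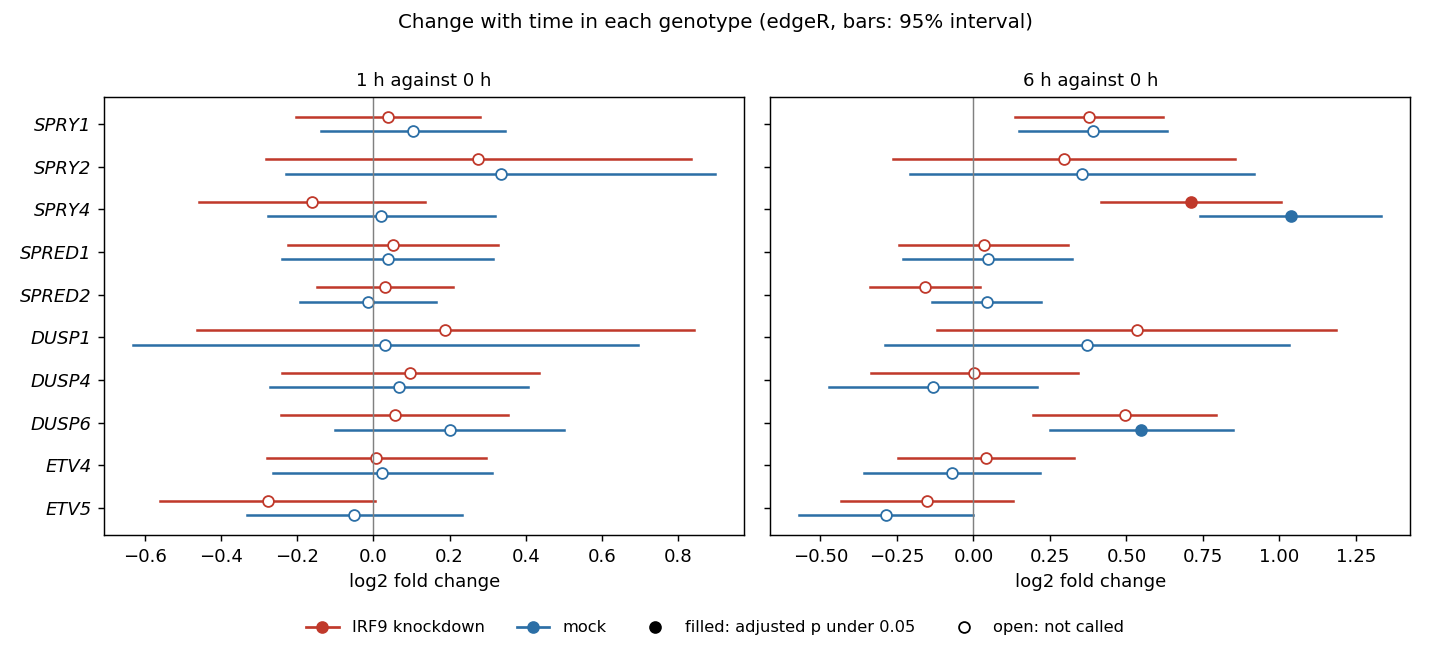
Log2 fold change (x axis) of each gene at 1 h and at 6 h over 0 h, in IRF9 knockdown (upper point of each pair) and mock (lower point) cells; bars are 95% intervals and filled points passed an adjusted p of 0.05 in edgeR. No point is filled at 1 h, and at 6 h SPRY4 is filled in both genotypes and DUSP6 in mock cells.

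DUSP1, an immediate-early phosphatase of p38, JNK and ERK (chromosome 13, 8664541 to 8667132), had the widest spread between replicates. Its knockdown libraries had 78.4, 80.7 and 60.4 CPM at 6 h, against 56.0, 50.8 and 44.7 CPM at 0 h, and did not overlap. Its mock libraries had 73.4, 31.4 and 56.4 CPM at 6 h, against 56.1, 30.9 and 37.6 CPM at 0 h, and did overlap. Mock replicate 1 was highest and mock replicate 2 lowest at 4 of 4 times, so the mock libraries differed more by number than by time. The averaged log2 fold change of 0.45 had an SE of 0.22 and did not pass (edgeR adjusted p = 0.329). With a replicate block within genotype it was 0.43 with edgeR adjusted p = 0.00187, although knockdown libraries were not taken as paired by number. In mock cells alone, where libraries were taken as paired, the block gave 0.33 with adjusted p = 0.193. In knockdown cells alone the main fit did not call DUSP1. There, edgeR called it with only the groups compared (0.53, adjusted p = 0.004) and with the block (0.52, adjusted p = 0.0128), and no other setting did. At 30 min, when an immediate-early transcript is commonly sampled, DUSP1 had 37.7, 56.0 and 39.2 CPM in knockdown cells and 58.2, 24.6 and 48.4 CPM in mock cells, overlapping 0 h in both. The median coefficient of variation within a group was 32.4% for DUSP1, and 9.37% for the median gene of like level.

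SPRY2, the third Sprouty (chromosome 1, 152630538 to 152636591), behaved like DUSP1 in this respect, with a median coefficient of variation of 29.0%. At 6 h it had 58.9, 59.7 and 39.6 CPM in knockdown cells, against 51.2, 49.5 and 28.0 CPM at 0 h. In mock cells it had 64.5, 36.5 and 44.6 CPM at 6 h, against 53.0, 31.2 and 29.6 CPM at 0 h. The times overlapped in both genotypes. Knockdown replicate 3 was lowest and mock replicate 1 highest at 4 of 4 times. In mock cells, whose numbers paired, 6 h libraries were compared with the 0 h library of the same number. They were above it in 3 of 3 numbers for SPRY2 and DUSP1, and also for SPRY1, SPRY4 and DUSP6. For DUSP1 in replicate 2 the log2 ratio was only 0.03. DUSP4 and ETV5 were above in 0 of 3 numbers. The share of all genes above in 3 of 3 was not computed, so these counts are no result about the genes. The averaged log2 fold change of SPRY2 was 0.33 (SE 0.19, edgeR adjusted p = 0.442). With the same replicate block it was 0.34 with adjusted p = 0.00323, and in mock cells alone the block gave 0.36 with adjusted p = 0.0531.

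The main fit called neither DUSP1 nor SPRY2 in any comparison, and the remaining 5 genes were not called in any comparison under any setting. SPRED1 (chromosome 5, 30233840 to 30288752) had group means between 108 and 126 CPM, and its averaged log2 fold change at 6 h was 0.04 with a 95% interval from -0.16 to 0.24. Mock replicate 2 was its lowest mock library at 4 of 4 times. DUSP4 (chromosome 4, 48873646 to 48878752) had group means between 32.5 and 40.6 CPM and an averaged change of -0.06, with an interval from -0.30 to 0.18. ETV4 (chromosome 27, 3160578 to 3174795) had group means between 46.3 and 59.9 CPM and an averaged change of -0.02, with an interval from -0.22 to 0.19. A doubling at 6 h, a log2 fold change of 1, lay outside each of these intervals.

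ETV5 (chromosome 9, 4776702 to 4787363) had its lowest group mean in mock cells at 6 h. Its mock libraries had 18.7, 18.3 and 19.3 CPM at 6 h, against 22.2, 22.9 and 23.5 CPM at 0 h, without overlap; the log2 fold change was -0.29 (SE 0.14), which did not pass (edgeR adjusted p = 0.497). Its knockdown libraries at 6 h lay between 16.6 and 24.8 CPM, against 24.3, 23.8 and 23.97 CPM at 0 h, and overlapped. SPRED2 (chromosome 3, 10230121 to 10281846) had 79.4, 81.2 and 71.6 CPM in knockdown cells at 6 h, against 89.1, 88.5 and 81.3 CPM at 0 h, just without overlap (log2 fold change -0.16, SE 0.09, edgeR adjusted p = 0.586). It shares its locus with the uncharacterised LOC121113161, and since no source used here gives the counter's strand setting, reads of these genes may not be fully separated. Counting groups that did not overlap between 6 h and 0 h, 4 members lay above in knockdown cells (SPRY1, SPRY4, DUSP1 and DUSP6; 12.6% of all genes) and 3 in mock cells (SPRY1, SPRY4 and DUSP6; 8.15%). One member lay below in each genotype, SPRED2 in knockdown cells (11.1% of all genes) and ETV5 in mock cells (5.78%).

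The first hour showed no called change in any of the 10 genes. At 30 min against 0 h, 0 members were called by edgeR in knockdown cells, in mock cells or averaged, where 0% of all genes were called each time. At 1 h, 0 members were called, with 0.0231% of all genes called in knockdown cells, 0.0154% in mock cells and 0.0462% averaged. In the main fit no member had an unadjusted edgeR p under 0.05 in these comparisons, and DESeq2 and limma voom called 0 as well. With the replicate block within genotype, 3 members in mock cells did at 30 min (1272 of 13000 genes) and 2 at 1 h (629 genes). In knockdown cells that block gave 0 at 30 min and 1 at 1 h. Without the mock replicate 2 libraries, 3 members in mock cells did at 30 min (898 genes). These settings called 0 members too. Counting libraries that did not overlap with 0 h, 2 members, SPRY4 and ETV5, lay below it in knockdown cells at 30 min (5% of all genes) and at 1 h (5.11%), and 1, ETV5, lay above it in mock cells at 30 min (3.64%). The largest mean of SPRY4 before 6 h was in mock cells at 30 min, where its range of 41.6 to 58.0 CPM overlapped that at 0 h. Of 27 other ERK-responsive transcription genes tested, 2 were called higher at 1 h, averaged over genotypes, and 0 lower, with a list median of 0.08. That list was chosen with earlier results of these data known. CYR61, a matricellular immediate-early gene and one of the 2, averaged 854 ± 34.3 CPM in knockdown cells at 1 h, against 410 ± 39.8 CPM at 0 h, and 773 ± 100 CPM in mock cells at 1 h, against 367 ± 56.5 CPM at 0 h (SD, n = 3 each). Its averaged log2 fold change was 1.07 (SE 0.13, edgeR adjusted p = 0.000159), and that of KLF6, a transcription factor gene, was 0.53 (SE 0.07, adjusted p = 0.000201).

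IRF9 knockdown against mock gave no called member at any time. By edgeR, 0 of 10 were called at 0 h, 30 min, 1 h and 6 h and averaged over the 4 times, where 0%, 0.00769%, 0%, 0% and 0.00769% of all genes were called in that order. DESeq2 and limma voom also called 0 members at each. At a single time, edgeR called IRF9 itself only at 30 min (edgeR adjusted p = 0.0316). It did not call IRF9 at 0 h (adjusted p = 0.997), 1 h (0.975) or 6 h (0.777), so a missing call at one of these times says little. The share of all genes at 30 min was unstable: 1 gene was called of 13000, but 33 with DESeq2, 195 without the low-count filter and 758 without mock 30 min replicate 3, and 0 members were called in each of these. In the main fit, 1 member had an unadjusted edgeR p under 0.05 at 30 min (ETV4, -0.30, SE 0.14). So did 1 at 6 h (SPRED2, -0.22, SE 0.09), and none at 0 h, at 1 h or averaged. Averaged over the times, the 95% interval of the knockdown difference ran from -0.24 to 0.06 for SPRY4, from -0.06 to 0.24 for DUSP6 and from -0.19 to 0.06 for SPRY1. It was widest for DUSP1, from -0.03 to 0.63. A difference of the size seen in IRF9 itself, -0.79, lay outside the interval of all 10 genes.

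**Figure D3:**
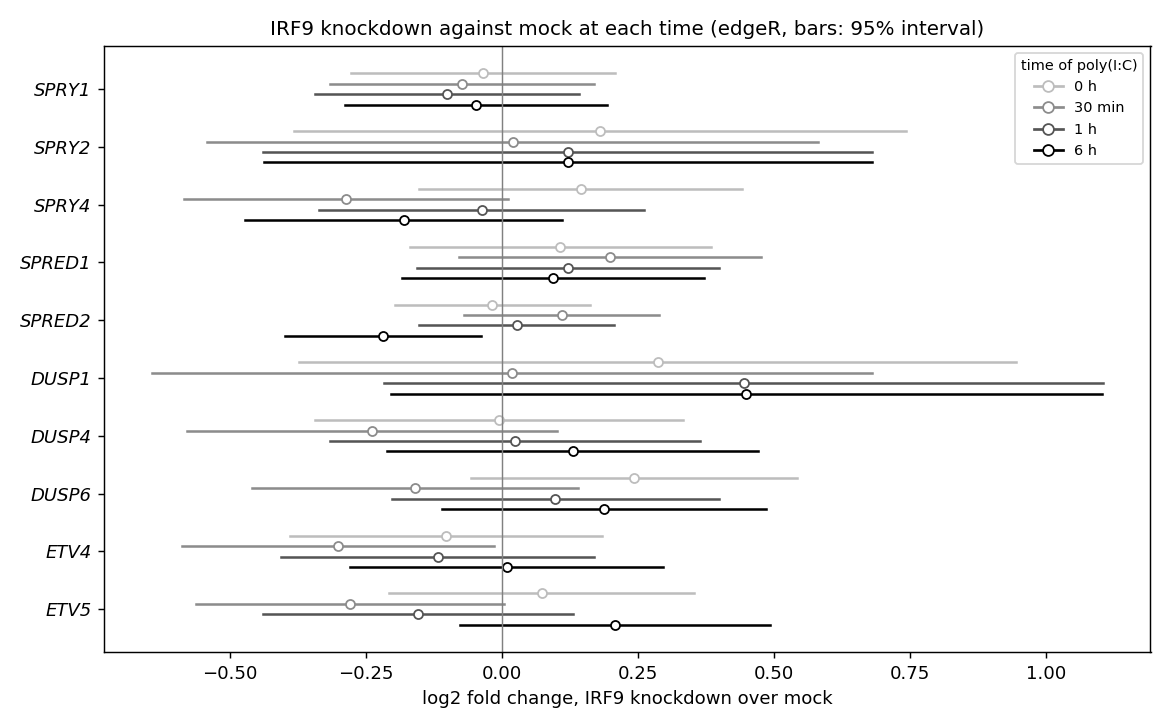
Log2 fold change of IRF9 knockdown over mock (x axis) for each gene at 0 h, 30 min, 1 h and 6 h (top to bottom within a gene); bars are 95% intervals, and open points did not pass an adjusted p of 0.05 in edgeR. Every point is open, and the intervals of DUSP1 and SPRY2 are the widest.

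A few single times had knockdown and mock libraries that did not overlap. SPRED2 at 6 h had 79.4, 81.2 and 71.6 CPM in knockdown cells and 87.1, 94.3 and 88.6 CPM in mock cells, with an edgeR adjusted p of 0.777. ETV5 had 24.3, 23.8 and 23.97 CPM in knockdown cells at 0 h and 22.2, 22.9 and 23.5 CPM in mock cells, and at 30 min 20.4, 22.2 and 20.02 CPM in knockdown cells and 28.0, 23.6 and 24.5 CPM in mock cells. These were all such cases. Of all genes, 4.71% lay above mock at 0 h (1 member) and 5.01% below (0 members), 5.42% above at 30 min (0 members) and 6.44% below (1 member), 3.06% above at 1 h and 3.38% below (0 members each), and 6.92% above at 6 h (0 members) and 6.35% below (1 member). Counts of 0 or 1 in 10 are near these shares and are no result about the 10 genes.

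No member's change with time was called different between the genotypes by the test of the interaction. For 30 min, 1 h and 6 h against 0 h, 0 members were called by edgeR, DESeq2 or limma voom, and 0% of all genes by edgeR each time. At 6 h the difference for SPRY4, knockdown minus mock, was -0.33 (SE 0.20, 95% interval from -0.74 to 0.09) and that for SPRED2 was -0.20 (SE 0.12, 95% interval from -0.45 to 0.05), each with an edgeR adjusted p of 1. In the main fit, 1 member had an unadjusted p under 0.05 at 30 min, again SPRY4 (-0.43, SE 0.20, edgeR adjusted p = 0.825). At 1 h and 6 h none did in that fit. The 30 min interaction was positive in 2 of the 10 genes, SPRED1 and SPRED2, and the median over the 10 was -0.22, beside -0.01 over all genes, of which 49.1% were positive. The 30 min libraries differed among themselves in these genes in both genotypes. In knockdown cells replicate 1 was above its group mean in 1 of the 10 and replicate 2 in 10 of the 10, and in mock cells replicate 1 was above it in 8 of the 10 and replicate 2 in 1 of the 10; the part of this in the 30 min values was not tested.

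Across the 8 group means of log2 CPM, the genes that were called ran together. Pearson's r was 0.94 between SPRY1 and SPRY4, 0.88 between SPRY4 and DUSP6 and 0.86 between SPRY1 and DUSP6, as a description over 8 points that share libraries and a common 6 h step. DUSP1 was close to DUSP6 (0.86), and mock replicate 2 was the lowest mock library of both at 4 of 4 times. SPRED1 and ETV4 ran opposite (-0.85), and ETV4 and ETV5 were moderately alike (0.63), though none of these was called in any comparison. Mock replicate 2 was the lowest mock library for SPRED1 at 4 of 4 times and the highest for ETV4 at 3 of 4. The part of that replicate in these correlations was not tested. Among 8774 other genes of at least 5 CPM on average, the 3 most like SPRY4 were TBX3, a T-box repressor (0.99), TMEM63B, an ion channel (0.99), and GTF2IRD1 (0.99). TBX3 averaged 91.3 ± 3.66 CPM in knockdown cells at 6 h, against 49.8 ± 2.16 CPM at 0 h, and 97.6 ± 2.78 CPM in mock cells at 6 h, against 47.7 ± 4.32 CPM at 0 h (SD, n = 3 each). Those most like SPRY1 were the reelin receptor gene LRP8 (0.99), EMP1 (0.99) and PHLDA1 (0.98). Those most like DUSP6 were SOX11 (0.98), CITED4 (0.98) and MYC (0.97).

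Around the feedback genes, the pathway's other parts were examined at 6 h against 0 h, averaged over genotypes, in lists named for their role. Among all genes, 3.7% were called higher in that comparison. The lists were chosen with earlier results of these data known, so their counts beside this share are a description. The list of ERK-responsive transcription genes also holds LIF, a cytokine gene, and CYR61, a matricellular gene. Which pathway drives the listed genes was not tested. Of 27 other ERK-responsive transcription genes tested, 9 were higher and 0 lower, and their median log2 fold change was 0.28. PHLDA1, a death-associated regulator, had 0.94 (SE 0.05, edgeR adjusted p = 1.10e-11), LIF, a cytokine of the interleukin-6 family, 1.38 (SE 0.11), KLF6 0.66 (SE 0.07) and BTG2, an antiproliferative gene, 0.68 (SE 0.08). LIF averaged 164 ± 21.7 CPM in knockdown cells at 6 h, against 60.1 ± 3.63 CPM at 0 h, and 156 ± 13.1 CPM in mock cells at 6 h, against 62.9 ± 6.66 CPM at 0 h (SD, n = 3 each). MYC rose as well, by 0.70 (SE 0.11).

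Of 6 other MAP kinase phosphatases tested, 2 were higher and 0 lower: DUSP16, which acts on JNK and p38, with 0.69 (SE 0.11), and DUSP10, which acts on the same kinases, with 0.40 (SE 0.09). Their list had a median of 0.37. Of 18 other brakes on receptors and RAS, 2 were higher and 0 lower, with a median of 0.02; ERRFI1, an inhibitor of the EGF receptor, had 0.41 (SE 0.11). The ERRFI1 call held in 17 of 24 fits without 1 library. It ended without replicate 1 or 3 of knockdown 0 h, replicate 2 or 3 of knockdown 6 h, replicate 2 or 3 of mock 0 h or replicate 3 of mock 6 h, with edgeR adjusted p up to 0.104 and values over the 24 fits from 0.36 to 0.49.

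Of 16 growth factor ligands tested, 5 were higher and 0 lower, with a median of 0.17. PDGFB, a mitogen of fibroblasts, averaged 27.4 ± 5.38 CPM in knockdown cells at 6 h, against 8.05 ± 0.0477 CPM at 0 h, and 29.5 ± 6.12 CPM in mock cells at 6 h, against 6.82 ± 0.658 CPM at 0 h (SD, n = 3 each). Its log2 fold change was 1.94 (SE 0.14, edgeR adjusted p = 3.47e-10), and that of VEGFA was 0.68 (SE 0.12). IGF2 (0.71, SE 0.18) and HGF (1.74, SE 0.44) were called at low levels, HGF averaging 3.07 ± 1.95 CPM in knockdown cells and 2.44 ± 1.05 CPM in mock cells at 6 h (SD, n = 3 each). The HGF call was lost without knockdown 6 h replicate 1, mock 0 h replicate 3 or knockdown 0 h replicate 3, and the IGF2 call without mock 0 h replicate 1, knockdown 0 h replicate 2 or knockdown 6 h replicate 3, with values over all leave-outs of 1.54 to 2.07 for HGF and 0.60 to 0.81 for IGF2.

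Of 15 receptor tyrosine kinases tested, 1 was higher, the VEGF receptor gene FLT1 (0.51, SE 0.10), and 1 lower, AXL (-0.34, SE 0.09). The AXL call held in 15 of 24 fits without 1 library, with values from -0.40 to -0.29, and ended without any knockdown 6 h library, replicate 2 or 3 of knockdown 0 h, replicate 1 or 2 of mock 0 h or replicate 1 or 3 of mock 6 h. The list of the ERK cascade also held adaptor genes upstream of RAS, and kinase and ETS factor genes downstream of ERK. Of its 23 genes tested, 1 was higher, RRAS (0.25, SE 0.07), and 0 were lower, with a median of -0.01. The RRAS call held in 6 of 24 fits, those without a mock 30 min library, replicate 1 or 2 of mock 1 h or replicate 2 of mock 6 h, with values over the 24 from 0.21 to 0.28. Of 13 kinases of the p38 and JNK branches, 1 was higher, MAP3K5 (0.41, SE 0.08), and 1 lower, MAP2K6, an activator of p38 (-2.26, SE 0.26, edgeR adjusted p = 1.13e-06). MAP2K6 averaged 2.78 ± 0.771 CPM in knockdown cells at 6 h, against 9.07 ± 1.39 CPM at 0 h, and 1.91 ± 0.413 CPM in mock cells at 6 h, against 13.6 ± 4.98 CPM at 0 h (SD, n = 3 each). Among all genes, 3.7% were called higher and 1.35% lower in this comparison. A count of 1 gene higher in these lists is near that share and is no result about the list. For IRF9 knockdown against mock averaged over times, edgeR called 0 genes in each of the 7 lists, and 0.00769% of all genes.

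**Figure D4:**
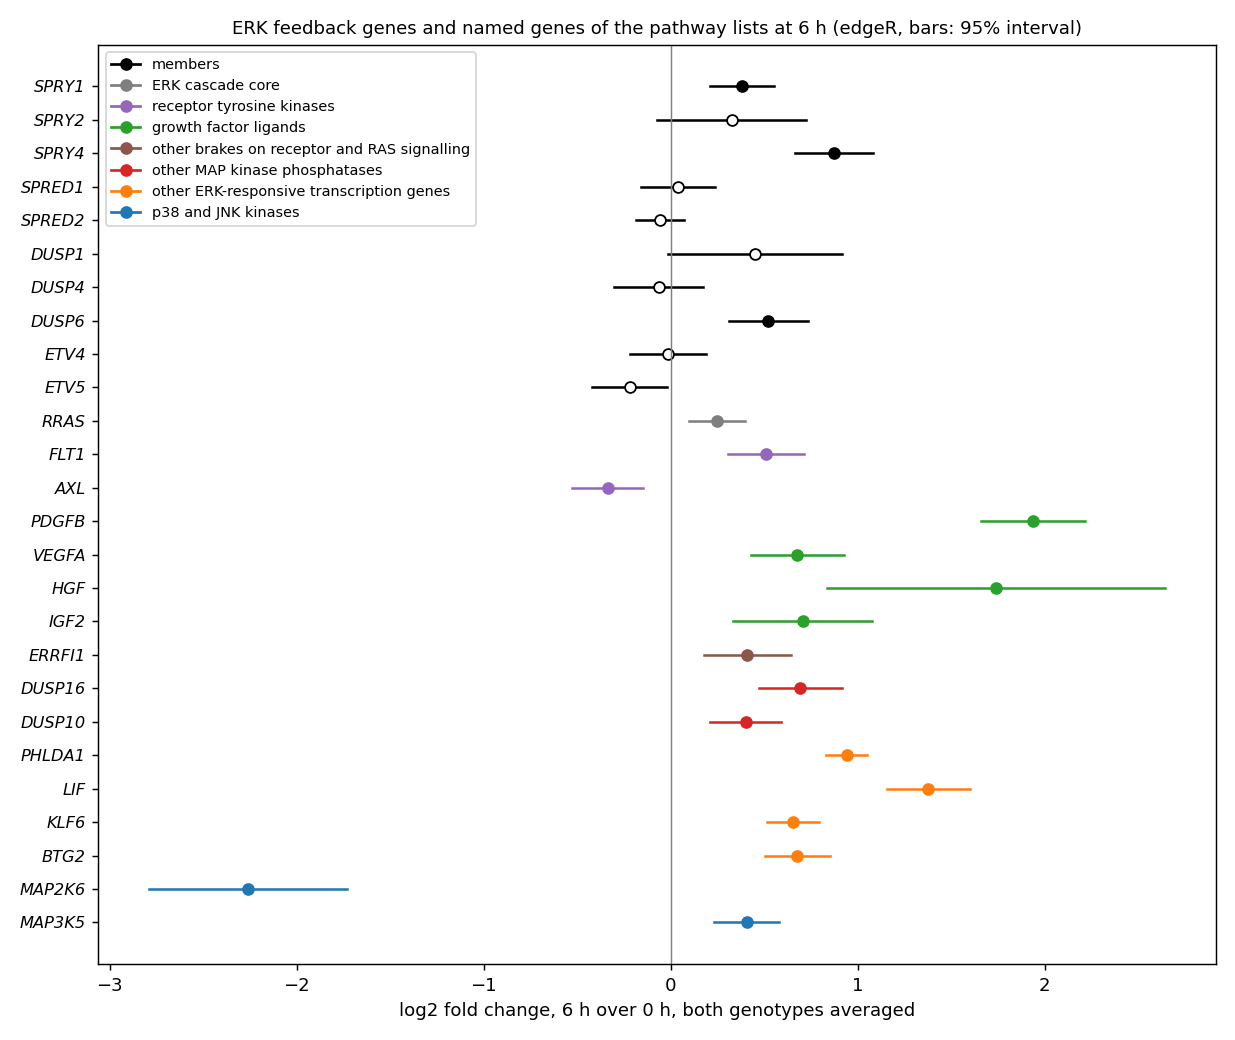
Log2 fold change at 6 h over 0 h, averaged over genotypes (x axis), of the 10 ERK feedback genes (black) and of the named genes of each pathway list (colours); bars are 95% intervals and filled points passed an adjusted p of 0.05 in edgeR. SPRY4, DUSP6 and SPRY1 are the filled members, PDGFB at 1.94 is the largest rise drawn and MAP2K6 at -2.26 the largest fall.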

How the data were processed

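The deposited values are whole-number read counts per gene, in 1 table per library and not normalized by the authors; per the labels, libraries were poly(A)-selected and directional. Per the submitters' processing notes, the tools were STAR 2.7.11b, HTSeq 2.0.5, edgeR 3.40.2, Trim Galore 0.6.10 and FastQC 0.12.1, with build GRCg7b; the role of each and the strand setting are not stated there. The 5 summary lines of the counter stayed out of library sizes and tests: reads outside genes were 14.6 to 18.8% of a library, ambiguous reads 1.18 to 1.33% and reads not uniquely aligned 3.43 to 4.25%. Same-group libraries differed by more than sampling noise (chi-square per degree of freedom 3.08 to 54.4 over 24 pairs), so none was counted as a copy.

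From the deposited counts, edgeR 4.0.16 (filterByExpr, TMM, glmQLFit, glmQLFTest; R 4.3.3) fitted 1 model of 8 group means to the 24 libraries together (16 residual degrees of freedom, common BCV 14.0%). P-values are two-sided and adjusted over 13000 genes; calls are at an adjusted p under 0.05. Other settings were DESeq2 1.42.0, limma voom 3.58.1, other scaling, no filter, only the groups compared, replicate blocks, no mock replicate 2 libraries, and each library left out. The script was also run on simulated counts of independent libraries, with no pairing and no replicate set apart, so it did not test those features.

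Replicate numbers come from the labels. In mock time comparisons, libraries of 1 number deviated from their groups' means together, with correlations of 0.13 to 0.441 for every number. Those were taken as paired. In knockdown time comparisons (-0.0127 to 0.167) and between genotypes (-0.145 to 0.152) this did not hold for every number, and libraries were not taken as paired. Against 0 h, knockdown replicate 3 had 0.147 to 0.167, within the mock range. Knockdown replicates 1 and 2 had -0.00947 to 0.075, so pairing there may be partial. The 3 deviations within a group are not independent of each other. Mock replicate 2, which stood apart, had correlations of 0.341 to 0.441, and mock replicates 1 and 3 had 0.13 to 0.247. How much of the pairing comes from replicate 2 was not tested. Besides the members and IRF9, the text names up to 4 called genes of the smallest p per pathway list, the 3 genes most like each called member in group means of log2 CPM (prior count 2), and up to 3 genes of a marker list by level. One gene chosen this way is left out of the text. KRT8, KRT18 and PDGFRA were named after their values were seen. The members and lists were chosen with earlier results of these data known.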

Additional observations from a re-analysis of the deposited data

Results flagged for a closer look

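ETV5, an ETS transcription factor gene, lay on opposite sides of its 0 h level at 30 min in the 2 genotypes. It is given here for that reason, and the share of all genes with such a pattern was not computed. In mock cells the margin was narrow, with 23.6 CPM at 30 min against 23.5 CPM at 0 h. At 30 min its knockdown libraries had 20.4, 22.2 and 20.02 CPM, all below the 24.3, 23.8 and 23.97 CPM of 0 h, while the mock libraries had 28.0, 23.6 and 24.5 CPM, all above the 22.2, 22.9 and 23.5 CPM of 0 h. The difference between these changes was -0.352 on the log2 scale (SE 0.19, 95% interval from -0.75 to 0.05) and did not pass the test of the interaction (edgeR adjusted p = 0.825).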

How the results depend on the processing

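None of the values called for a member changed sign in any of the 33 other settings, 24 of which left out 1 library. SPRY4 was called in all of them in every 6 h comparison where it was called, and DUSP6 and SPRY1 likewise at 6 h against 0 h averaged over genotypes. The count of members called at 6 h against 0 h in mock cells was 1 with only the groups compared (DUSP6 was lost, adjusted p = 0.165) and 1 to 2 without 1 library. In knockdown cells it was 1 in the main fit, and 2 with DESeq2, without the low-count filter and with a replicate block shared by both genotypes. It was 4 (SPRY1, SPRY4, DUSP1 and DUSP6) with only the groups compared and with a replicate block within genotype. Without the mock replicate 2 libraries it was 3 (SPRY1, SPRY4 and DUSP6), and without 1 library it was 1 to 2. At 6 h against 1 h it was 2 with the replicate block within genotype in mock cells, and 2 in knockdown cells with only the groups compared, with that block and without the mock replicate 2 libraries. Averaged over genotypes, the block within genotype gave 5 members at 6 h against 0 h, adding DUSP1 (0.43, adjusted p = 0.00187) and SPRY2 (0.34, adjusted p = 0.00323), and 4 at 6 h against 1 h, adding DUSP1 (0.35, adjusted p = 0.0120); without 1 library the count at 6 h against 1 h was 1 to 3. DUSP1 at 6 h against 0 h, averaged, was also called without the low-count filter (0.45, adjusted p = 0.0411). The cause of these moves was not tested. The block in knockdown cells rests on numbers that were not taken as paired, although libraries of replicate 3 deviated together against 0 h. The block within genotype called 1492 genes in all at 6 h against 0 h averaged, against 656 without it. The block changed no other member's call in mock cells than those given beside the results. SPRY1 at 6 h against 1 h, averaged, missed the threshold with library totals (adjusted p = 0.0998), with only the groups compared (0.0744) and without the mock replicate 2 libraries (0.0915). Among member values called in neither fit, 238 of 6156 changed sign. RRAS lost its call with the other size factors, with library totals and without the filter, and HGF without the mock replicate 2 libraries (adjusted p = 0.0512). No setting called a member in a knockdown comparison, an interaction or the first hour; without the mock replicate 2 libraries, 5 members at 30 min, knockdown against mock, had an unadjusted p under 0.05, as did 2314 of 13000 genes. Each member had 233 to 2612 reads per library, and the median coefficient of variation within a group was 32.4% for DUSP1 and 29.0% for SPRY2.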
